A study of Drosophila melanogaster and Drosophila miranda with 8 samples.

Results

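The dot chromosome is the smallest chromosome of *Drosophila*, chromosome 4 in *D. melanogaster* and Muller element F in *D. miranda*. The CLAMP ChIP-seq peaks examined here were all peaks that the deposited lists place on it: 93 of 9080 and 114 of 8792 peaks in *D. melanogaster* replicates 1 and 2, and 61 of 3577 and 160 of 12523 peaks in *D. miranda* replicates 1 and 2. Over the 4 lists this is 428 of 33972 peaks. The lists come from wild type female larvae of the 3rd instar, *D. melanogaster* kept at 21 °C and *D. miranda* at 18 °C, with 2 ChIP libraries made with an anti-CLAMP antibody and 2 input libraries without antibody per species. The input libraries enter only through the peak calls, and species and temperature cannot be told apart. Chromatin came from pools of ground larvae, so tissues and animals are mixed in each library. The labels number the replicates but do not say that they came from separate collections of larvae.

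CLAMP is a zinc finger protein that binds GA-rich sequence on all chromosomes and helps to bring the male-specific dosage compensation complex to the X-chromosome. In females, as here, that complex does not assemble, but CLAMP is present and binds. The dot chromosome is unusual among *Drosophila* autosomes: its genes are interspersed with repeats and with chromatin marked by the heterochromatin protein HP1a, it carries its own chromosome-wide regulator, the protein POF, and it is thought to descend from a former X-chromosome. How densely and how strongly CLAMP occupied it relative to the other chromosomes of the same list is therefore the comparison made here.

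A peak is described by its position, its width and 1 value that the lists do not name and that is read here as log2 of ChIP over input. Positions in *D. melanogaster* are on dm3 (chr4) and those in *D. miranda* on the published assembly that the study used (F), and no gene annotation or sequence of these builds was used. The length of a chromosome was read from the lists, as the position where its last peak ends, which gave 1.29 Mb for chromosome 4 and 1.77 Mb for F. The other assembled chromosomes are X, 2L, 2R, 3L and 3R in *D. melanogaster* and the Muller elements A, AD, B, C and E in *D. miranda*. Read depth is not in the peak lists. The numbers that the study's methods give for the alignment of *D. melanogaster* replicate 2 do not match each other, so the depth of that library is uncertain, and each result below is given for each list.

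In each species the dot chromosome was denser in CLAMP peaks than the rest of the genome in 1 replicate, and close to it in the other. Chromosome 4 carried 72.3 peaks per Mb in replicate 1 (95% Poisson interval 58.4 to 88.6), against 74.8 on the other chromosomes. In replicate 2 it carried 88.7 peaks per Mb (73.1 to 107), against 69.8. Chromosome 4 thus ranked the 4th of 6 chromosomes in replicate 1 and first in replicate 2. In *D. miranda* the replicates also parted, but in the other order: F carried 34.4 peaks per Mb in replicate 1 (26.3 to 44.2), against 26.1, and 90.2 in replicate 2 (76.8 to 105), against 91.6. These intervals cover counting error only.

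The ratios of dot chromosome density to that of the other chromosomes were 0.97 (95% interval 0.78 to 1.19) and 1.27 (1.05 to 1.53) in *D. melanogaster* and 1.32 (1.01 to 1.70) and 0.98 (0.84 to 1.15) in *D. miranda*. By a two-sided exact conditional binomial test, with Benjamini-Hochberg adjustment over 36 tests (6 chromosomes in each of 4 lists and 2 sets of shared regions), none of the 4 passed the threshold. The raw p-values were 0.798, 0.0146, 0.0380 and 0.906, and the adjusted p-values 0.987, 0.0764, 0.137 and 0.988. Of the 36 tests, 1 (2.78%) was called, that of 3R in *D. melanogaster* replicate 1. The adjusted p-value of *D. melanogaster* replicate 2 came nearest to the threshold of 0.05 among the 4 lists, and the difference between replicates was not tested. With lengths measured from the first to the last peak, which shortens chromosome 4 by its empty start, the *D. melanogaster* ratios were 1.02 and 1.34 (0.82 to 1.25 and 1.10 to 1.61), and that of replicate 2 passed (adjusted p = 0.0413 by the exact test). Against autosomes alone the *D. miranda* ratios were 1.37 and 1.01, and neither passed.

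**Figure D1:**
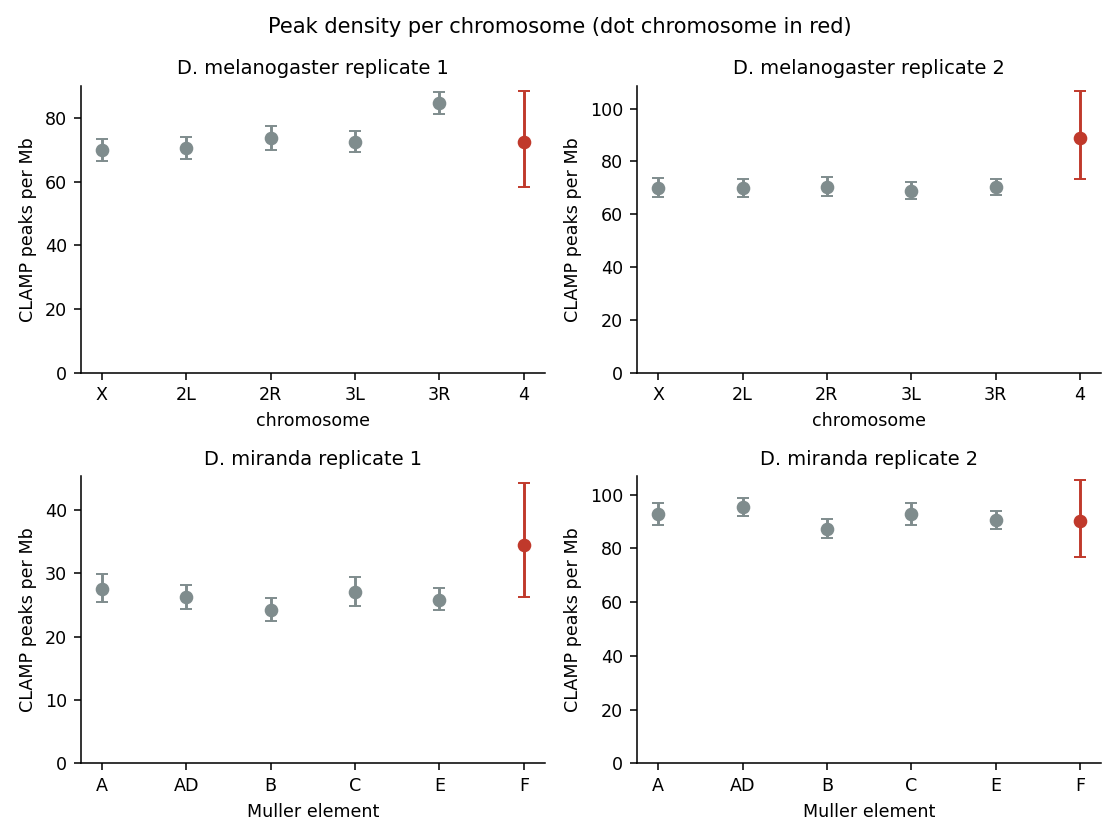
CLAMP peaks per Mb on each assembled chromosome or Muller element in each of the 4 lists, with the dot chromosome in red and exact 95% Poisson intervals as bars. The dot chromosome stands at 88.7 in D. melanogaster replicate 2 and 34.4 in D. miranda replicate 1, the highest of its list, and within the other chromosomes' range at 72.3 and 90.2 in the remaining lists.

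Because the dot chromosome is short, its counts were set beside those of windows of its own length tiled over the other chromosomes, 90 windows for *D. melanogaster* and 73 for *D. miranda*. The tiling ran from the first base of each chromosome, and the shorter remainder at its end was in no window. Such windows describe how widely peak counts vary over such a length. With 114 peaks in *D. melanogaster* replicate 2, chromosome 4 held more than each of the 90 windows, whose median was 91 and whose highest was 113. With 93 peaks in replicate 1 it was at or below 60 of them (median 98). In *D. miranda* replicate 1 the 61 peaks on F were reached by 2 of 73 windows (median 45), and in replicate 2 the 160 peaks were reached by 45 of 73 (median 163). The variance of the window counts was 3.09 and 1.34 times their mean in *D. melanogaster* and 1.24 and 2.02 times in *D. miranda*. Counts therefore varied more between stretches of chromosome than the binomial test assumes, which makes its p-values too small.

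**Figure D2:**
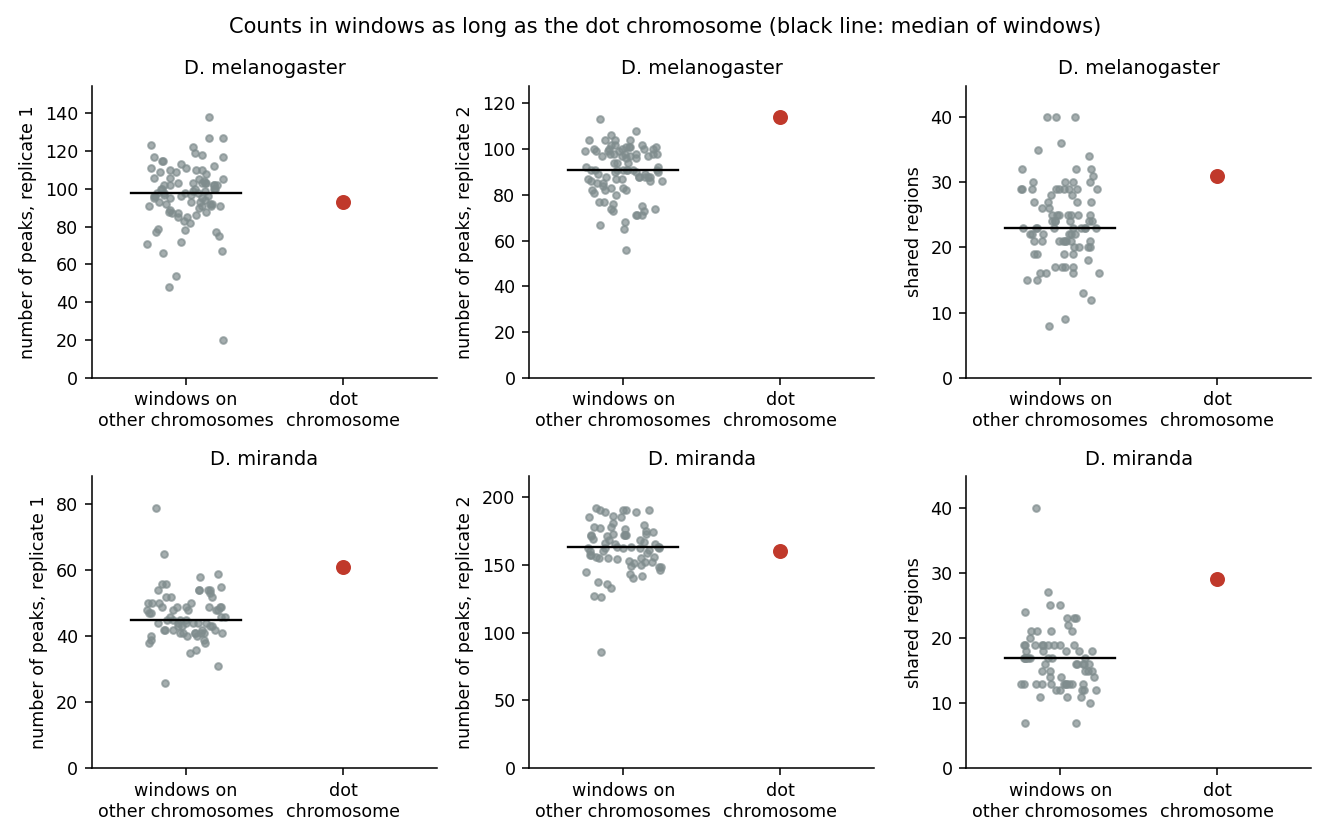
Number of CLAMP peaks in each replicate and of regions shared by both replicates (vertical axes), in windows as long as the dot chromosome on the other chromosomes (grey, with the median as a black line) and on the dot chromosome itself (red). The dot chromosome lies above all 90 windows in D. melanogaster replicate 2 (114 against at most 113), while 60 of 90 reach its 93 peaks in replicate 1.

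The base pairs under peaks split the replicates of *D. melanogaster* in the same way, whereas in *D. miranda* F was the most covered of the 6 elements in both replicates. In *D. melanogaster* peaks covered 10.3% of chromosome 4 in replicate 1, against 10.9% of the other chromosomes, and 15.5% in replicate 2, against 11.2%. No window of the other chromosomes reached 15.5% in replicate 2, the highest being 14.5%. In *D. miranda* peaks covered 5.96% of F in replicate 1, against 3.81%, and 15.5% in replicate 2, against 14.2%. Gaps between neighboring peaks had medians of 8.24 and 6.02 kb on chromosome 4 (other chromosomes 7.49 and 8.46 kb) and of 21.3 and 5.78 kb on F (24.7 and 6.18 kb).

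The furthest that dot chromosome peaks stood from their list in value was in *D. melanogaster* replicate 2. In *D. melanogaster* replicate 2, 76 of 114 chromosome 4 peaks (66.7%, exact Clopper-Pearson 95% interval 57.2 to 75.2) were among the highest 25% of values in their list, a limit that 25.1% of all assembled-chromosome peaks reached because of ties. In replicate 1 it was 20 of 93 peaks (21.5%, 13.7 to 31.2), against 25.2% of the list. In *D. miranda* it was 16 of 61 peaks (26.2%, 15.8 to 39.1) in replicate 1, against 32.1%, and 58 of 160 (36.3%, 28.8 to 44.2) in replicate 2, against 26.8%. The interval of this last share also lay above that of its list. Ties were frequent in both replicate 1 lists, where 12.9% of the chromosome 4 peaks share the value 2.84 and 14.8% of the F peaks share 4.96, so these lists rank their peaks coarsely.

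The median value of chromosome 4 peaks in replicate 2 was 3.00, against 2.20 on the other chromosomes, a difference of 0.80 on the log2 scale. The other chromosomes had medians of 2.09 to 2.28. The lower quartile of the chromosome 4 values, 2.60, lay above the median of the other chromosomes, and 3 of the 114 peaks fell below the lower quartile of the list, against 25.0% of all its peaks. In replicate 1 the median was 3.12 on chromosome 4 and 3.12 on the other chromosomes, and 11 of 93 peaks fell below the lower quartile, against 12.3%. In *D. miranda* the medians were 3.64 on F against 3.96 in replicate 1 and 1.94 against 1.90 in replicate 2. On F, 22 of 61 peaks in replicate 1 (36.1%) and 49 of 160 in replicate 2 (30.6%) lay below the lower quartile, against 23.9% and 24.5% of their lists.

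In *D. melanogaster* replicate 2 the shift reached from the low to the high values. The highest 10% of values took in 43 of the 114 chromosome 4 peaks (37.7%), against 10.8% of the list. At or above the value of the list's 100th peak there were 4 chromosome 4 peaks among 102, and the highest chromosome 4 value was 5.71 where the more numerous peaks of the other chromosomes reached 7.55. The highest 10% took in 9 of 93 peaks (9.68%) in replicate 1, against 11.1%. On F it took in 13 of 61 (21.3%) and 24 of 160 (15.0%), against 22.0% and 10.6%.

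**Figure D3:**
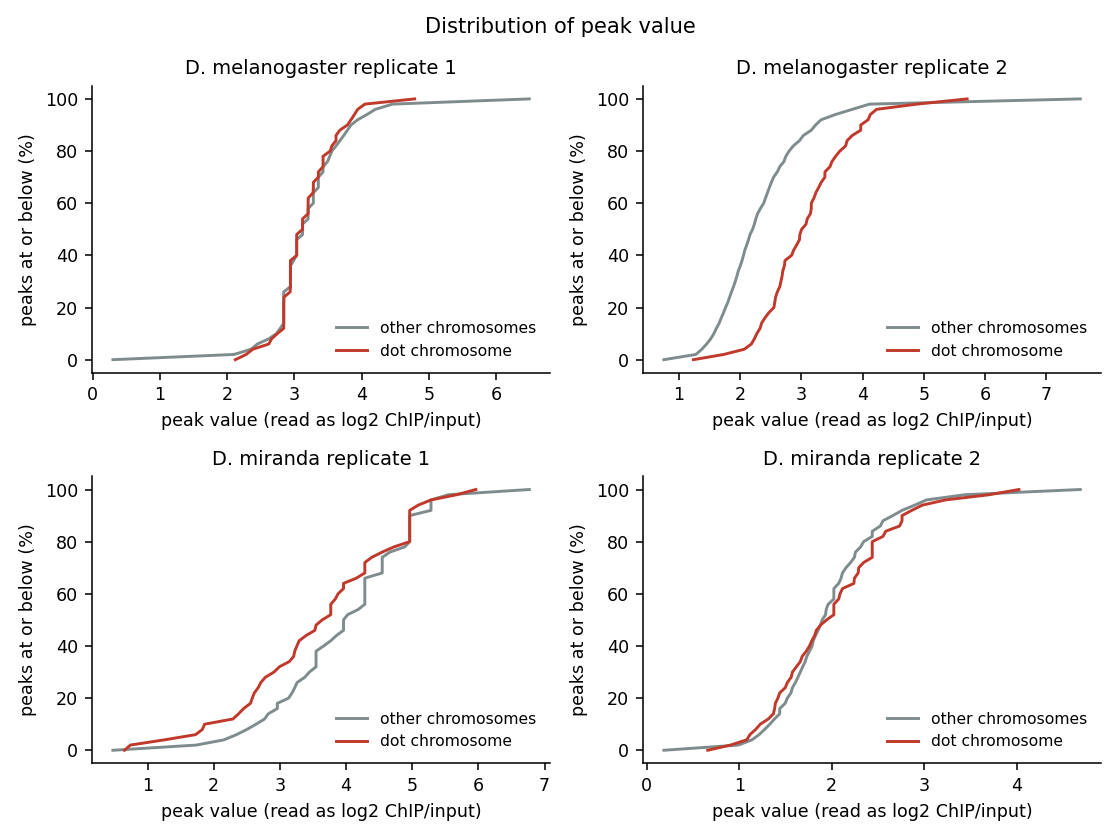
Share of peaks at or below a given value (vertical axis, percent) against peak value, read as log2 ChIP/input (horizontal axis), for the dot chromosome (red) and the other chromosomes (grey) of each list. The red line is displaced to higher values in D. melanogaster replicate 2 (median 3.00 against 2.20) and overlies the grey line in replicate 1 (3.12 and 3.12).

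Of the chromosome 4 peaks of replicate 2, 105 of 114 were at or above the list median, so the density ratio among such peaks, 2.34, restates the shift in value and gives no test of it. In *D. miranda* replicate 1, with 24 of 61 F peaks at or above the median, the same restriction took the ratio of F from 1.32 to 0.93 (0.60 to 1.39). The high values ran along the whole of chromosome 4: in replicate 2 the median of each of 10 equal segments lay above the list median of 2.21, from 2.54 to 3.68. In replicate 1, 4 of the 10 segments lay above the list median.

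High median values in *D. melanogaster* replicate 2 also occurred at or toward the centromere-proximal ends of some large arms. Of the 90 windows 1 exceeded chromosome 4, the last window of 3L, with a median of 3.11 over 56 peaks. The next were the first and the second windows of 2R (2.85 and 2.73) and the last full window of 2L (2.65). These also lie at or toward the centromeric ends of their arms. The window that followed in order, the 14th of 17 on 2L (2.49), lies further from the end. The 15th and 16th windows of 2L, nearer to that end, had medians of 2.05 and 2.14. The remainders at the centromeric ends of 2L, 3L and X, shorter than a window, were in no window. The first window of 3R, at its centromeric end, and the last full window of X had medians of 2.33 and 2.44, nearer to the list median of 2.21. Peaks on the heterochromatic and unplaced sequences, which are outside the comparisons above, had a median of 4.65 in replicate 2, with 315 of 368 reaching the limit of the highest 25%. In replicate 1 the median was 3.12, with 19 of 93. These stretches were looked up after the values on chromosome 4 had been seen, and their part in the chromosome 4 result was not tested.

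Chromosome 4 peaks of replicate 2 were also wider. Their median width was 1731.5 bp, against 1512 bp on the other chromosomes, and 39 of 114 (34.2%, 25.6 to 43.7) were among the widest 25% of the list, against 25.1%. The corresponding medians in replicate 1 were 1284 and 1299 bp, with 25 of 93 peaks (26.9%, 18.2 to 37.1) among the widest, against 25.0%. On F the median was 1553 bp against 1287.5 bp in replicate 1, with 19 of 61 peaks (31.1%, 19.9 to 44.3) against 25.1%, and 1410.5 bp against 1392 bp in replicate 2, with 43 of 160 (26.9%, 20.2 to 34.4) against 25.0%. The intervals of the last 3 shares all include the share of their list. No peak was narrower than 1000 bp, and 18.0% of F peaks in replicate 1 had exactly that width, against 31.3% of the peaks on other chromosomes.

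Value and width were not interchangeable measures. Across the peaks of chromosome 4 their Spearman correlation was 0.61 in replicate 1 (n = 93) and -0.16 in replicate 2 (n = 114), and across those of F it was -0.40 (n = 61) and -0.32 (n = 160). The other chromosomes had the same sign in each list (0.59, -0.23, -0.48 and -0.30). Peaks of a list share its library and depth, so these are descriptions.

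In both replicates of both species the dot chromosome had the highest share of peaks that met a peak of the other replicate, narrowly so in *D. melanogaster* replicate 2. A peak that met a peak of the other replicate over 1 bp or more was called shared, and such peaks were joined into shared regions. Chromosome 4 held 31 shared regions, or 24.1 per Mb (16.4 to 34.2), against 18.4 per Mb on the other chromosomes. F held 29, or 16.4 per Mb (11.0 to 23.5), against 9.42. Both were the highest of the 6 chromosomes in their species. The ratios were 1.31 (0.89 to 1.86, p = 0.147, adjusted p = 0.378) and 1.74 (1.16 to 2.51, p = 0.00639, adjusted p = 0.0699) by the exact conditional binomial test over the same 36 tests, so neither passed. Of the windows on other chromosomes, 10 of 90 reached 31 regions in *D. melanogaster* and 1 of 73 reached 29 in *D. miranda*, where the median was 17.

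Counted by peak, 34 of 93 chromosome 4 peaks of replicate 1 were shared (36.6%, 26.8 to 47.2), against 25.7% of the list, and 35 of 114 of replicate 2 (30.7%, 22.4 to 40.0), against 27.4%. On F it was 31 of 61 peaks of replicate 1 (50.8%, 37.7 to 63.9), against 37.5%, and 29 of 160 of replicate 2 (18.1%, 12.5 to 25.0), against 10.9%. The intervals lay above the share of the list in 3 of the 4 lists, the exception being *D. melanogaster* replicate 2. In that list 3R followed with 28.9%. Of the windows as long as the dot chromosome, 3 and 23 of 90 reached its share in *D. melanogaster* replicates 1 and 2. In *D. miranda* 4 and 1 of 73 did. Since the 2 lists of a species are matched against each other, the pair of shares in a species are not independent.

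How much of a chromosome the other list covers sets how often a peak meets it by position alone. The share of chromosome 4 peaks of replicate 1 whose center fell inside a replicate 2 peak was 23.7%, or 1.53 times the 15.5% of the chromosome that replicate 2 covered. The other chromosomes of that list gave 1.47 as a pool, so per covered base chromosome 4 differed little from them. For replicate 2 the ratio was 1.79, against 1.49, and above each of the other chromosomes (1.40 to 1.64). On F it was 2.64 and 2.52, against 1.84 and 1.77. Both were above each of the other 5 Muller elements, which ranged from 1.76 to 2.06 and from 1.70 to 1.85. The F ratios rest on 25 of 61 centers (41.0%, 28.6 to 54.3) and 24 of 160 (15.0%, 9.85 to 21.5). These intervals are wide, and none was computed for the ratios themselves.

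The call for F depended on the setting. With peaks at or above the median value the ratio was 1.04 (0.28 to 2.69, adjusted p = 0.989 by the exact test). That setting left 4 shared F peaks in each list, and its interval includes the 1.74 of all peaks, so it cannot decide whether the excess remained. With centers within 200 bp the ratio was 1.74, but its interval was wide (0.63 to 3.84, adjusted p = 0.480 by the exact test). By the same exact test, the ratio of F in *D. miranda* passed the threshold with a reciprocal overlap of 50% (2.23, 1.36 to 3.48, adjusted p = 0.0216). It also passed against the autosomal elements B and E alone (1.86, 1.24 to 2.71, adjusted p = 0.0245 by the exact test). With peaks at or above the median width it passed too (2.36, 1.39 to 3.77, adjusted p = 0.0175 by the exact test). F peaks of replicate 1 were wider than the rest (median 1553 against 1287.5 bp), and this cut kept 37 of 61 of them. The width cut therefore selects on a measure in which F differed. For chromosome 4 the ratio was 1.40 with reciprocal overlap and 1.33 at or above the median width, and neither passed (adjusted p = 0.413 and 0.488 by the exact test). At or above the median value it was 2.28, a selection that keeps 105 of 114 chromosome 4 peaks of replicate 2 but 4146 of 8310 elsewhere, so that this rise carries the shift in value and is no measure of agreement.

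The shared regions of chromosome 4 ranked high in value in replicate 2 but not in replicate 1, while those of F ranked low in both lists. On chromosome 4, 16 of the 31 shared regions were at or above the 50th percentile of value in both lists (ties take their mean rank) and 0 were below it in both, against 29.2% and 22.5% of the 2192 shared regions on other chromosomes. A count of 0 of 31 allows a share of up to 9.68%, taking 3 counts as the limit. On F, 4 of 29 were at or above it in both lists and 18 were below it in both, against 19.2% and 38.2% of 1271. The median percentile within the list was 56.9 in replicate 1 and 83.8 in replicate 2 on chromosome 4, against 56.9 and 49.1, and 26.2 and 22.5 on F, against 42.4 and 42.0. The high position on chromosome 4 therefore came from replicate 2, the list with raised chromosome 4 values throughout. With 105 of its 114 chromosome 4 peaks at or above the 50th percentile, few regions could fall below it in both lists.

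**Figure D4:**
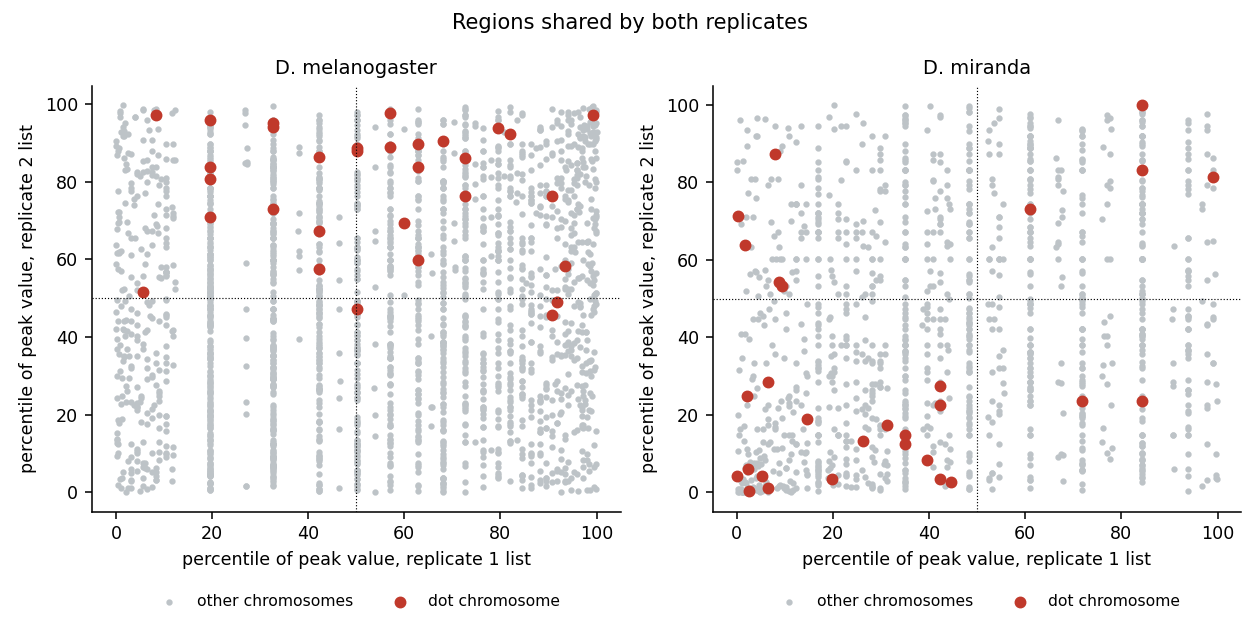
Within-list percentile of peak value in replicate 1 (horizontal axis) and replicate 2 (vertical axis) for each region shared by both replicates, on the dot chromosome (red) and the other chromosomes (grey), with dotted lines at the 50th percentiles. On chromosome 4 none of 31 red points lies below both lines, and on F 18 of 29 do.

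On F, as on the other Muller elements, the shared peaks were the wide and low ones. In replicate 1 shared peaks had a median value of 3.18 and a median width of 1638 bp, against 4.12 and 1219.5 bp for those without a partner. In replicate 2 they had 1.56 and 2051 bp, against 2.02 and 1326 bp. On the other elements shared peaks had 3.74 and 1652 bp in replicate 1, against 4.28 and 1151 bp for those without a partner. In replicate 2 of those elements it was 1.79 and 1749 bp, against 1.92 and 1365 bp. Of the F peaks below the 50th percentile of value in replicate 1, 25 of 40 were shared (62.5%, 45.8 to 77.3), and of those at or above it, 6 of 21 (28.6%, 11.3 to 52.2). In replicate 2 it was 20 of 79 (25.3%, 16.2 to 36.4) and 9 of 81 (11.1%, 5.21 to 20.0). In this split by value the other Muller elements had the same direction with smaller differences, 43.8% and 30.2% in replicate 1 and 12.8% and 8.69% in replicate 2. A wide peak has more bases in which to meet a partner, and width was not held fixed in these shares.

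Within the shared regions the 2 replicates did not rank the dot chromosome peaks alike. Across the 31 regions of chromosome 4 the Pearson correlation of value was -0.02 and the Spearman correlation -0.09, and across the 29 of F they were 0.36 and 0.25. On the other chromosomes they were 0.10 and 0.08 (n = 2192) and 0.26 and 0.25 (n = 1271). Peak centers lay within 200 bp of each other in 7 of the 31 and 6 of the 29 regions. The overlap between the linked peaks had a median of 1017 bp on chromosome 4 and 1497 bp on F, against 975 and 1000 bp elsewhere.

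The strongest shared region of chromosome 4 by mean percentile lay at the far end of the sequence, chr4:1283418-1285611. It had a value of 4.79 in replicate 1 and 3.97 in replicate 2, the 99.2nd and 97.3rd percentiles of the lists, and ranked 10th of the 2223 shared regions of the species. It was high in both libraries, and was also the highest chromosome 4 peak of replicate 1. The next was chr4:230510-232413, with values of 3.62 and 3.38. The third, chr4:68706-70671, had 3.56 and 3.55 and was the first peak of the chromosome in both lists, since no peak was called before it. The other 3 of the leading 6 were chr4:401495-404795 (3.89 and 2.73), chr4:214865-217416 (3.43 and 3.08) and chr4:327023-329891 (3.36 and 3.24).

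Where the peak calls coincided best on chromosome 4, the values could still differ. The centers lay 19 bp apart at chr4:590776-592628, a region of middling value (3.03 and 2.33). At chr4:995954-997011 they lay 29.5 bp apart, but the value was 2.62 in replicate 1, the 8.22nd percentile, and 3.97 in replicate 2, the 97.3rd. At chr4:232859-234506 they lay 60.0 bp apart, with 3.28 and 3.23. The widest shared region, chr4:1175974-1182252 with 6279 bp, joined 2 peaks of replicate 1 to 1 peak of replicate 2 and had values of 3.94 and 2.19.

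The highest chromosome 4 peaks of replicate 2 had no counterpart in replicate 1. They were chr4:332583-333597 (5.71), chr4:1256827-1258212 (5.29) and chr4:306887-308136 (4.97), with the nearest replicate 1 center 4357, 2344 and 6272 bp away. In replicate 1, the second highest and also the widest peak, chr4:486332-489223 (4.12, 2892 bp), likewise had none. The third, chr4:790619-792621 (4.03), was shared.

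On F the leading shared region was F:346726-349404, with values of 4.96 and 4.02, the 84.3rd and 99.9th percentiles, but the peaks overlapped by only 30 bp and their centers lay 1324.5 bp apart. The peaks of this region thus adjoin more than they coincide. The second, F:1536115-1539239, had 5.77 and 2.40 with an overlap of 1936 bp, and the third, F:993072-994514, had 4.96 and 2.44 with an overlap of 1000 bp. These 2 were high in both libraries and overlapped broadly. F:615408-618596 had 4.28 and 2.22, the 61.0th and 73.1st percentiles of lists that differ in scale. In the other 2 of the leading 6 the ranks parted, with 4.96 and 1.57 (the 84.3rd and 23.6th percentiles) at F:1752099-1754735 and 4.55 and 1.57 (the 71.9th and 23.6th) at F:157807-159531.

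The 3 shared regions of F with the closest centers were low in both lists. Centers lay 16.0 bp apart at F:562575-566321, where the peaks were 3707 and 3747 bp wide with values of 2.91 and 1.50, the 14.7th and 18.8th percentiles. At F:1770984-1772989, the last peak of the element in both lists, they lay 130.0 bp apart, with 3.11 and 1.10. At F:118614-121384 the distance was 143 bp and the values 2.27 and 1.15. Regions a little less well aligned were not all low. F:993072-994514, at 170.5 bp, was at the 84.3rd and 83.3rd percentiles. F:1506281-1507918 (175 bp) and F:560811-562555 (192 bp) were low in replicate 1 (9.42nd and 8.02nd) and higher in replicate 2 (53.2nd and 87.3rd). The widest region, F:1720091-1727055, spanned 6965 bp and held the widest F peak of each list, with values of 1.68 and 2.07. The highest unshared peaks of F were F:14941-17080 (5.96) and F:41625-42899 (5.28) in replicate 1, and F:1441740-1443012 (3.90) and F:824209-825336 (3.76) in replicate 2.

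Along the dot chromosome, peaks were spread over its length with different weights in the 2 species. Counted in 10 equal segments from the first base, chromosome 4 held 1, 15, 6, 7, 10, 11, 10, 12, 10 and 11 peaks in replicate 1 and 4, 12, 9, 12, 10, 12, 15, 12, 12 and 16 in replicate 2. The first segment was the emptiest in both lists. The second segment held 8 of the 31 shared regions, all between chr4:137482 and chr4:234506, against 1, 1, 1, 1, 5, 5, 3, 3 and 3 in the others in order. Over the 10 segments the counts of the replicates had a Pearson correlation of 0.74 and a Spearman correlation of 0.58, to which the first segment contributes.

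F had no such empty end. Its segments held 13, 6, 4, 5, 4, 3, 5, 7, 6 and 8 peaks in replicate 1 and 13, 16, 16, 22, 15, 19, 15, 14, 17 and 13 in replicate 2. Replicate 1 was fullest at the ends and thin in the middle, replicate 2 the reverse, and the correlations over the 10 segments were -0.57 and -0.67. Shared regions numbered 6, 2, 1, 3, 1, 3, 0, 3, 4 and 6, so that the first and the last segment held 6 each of the 29.

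**Figure D5:**
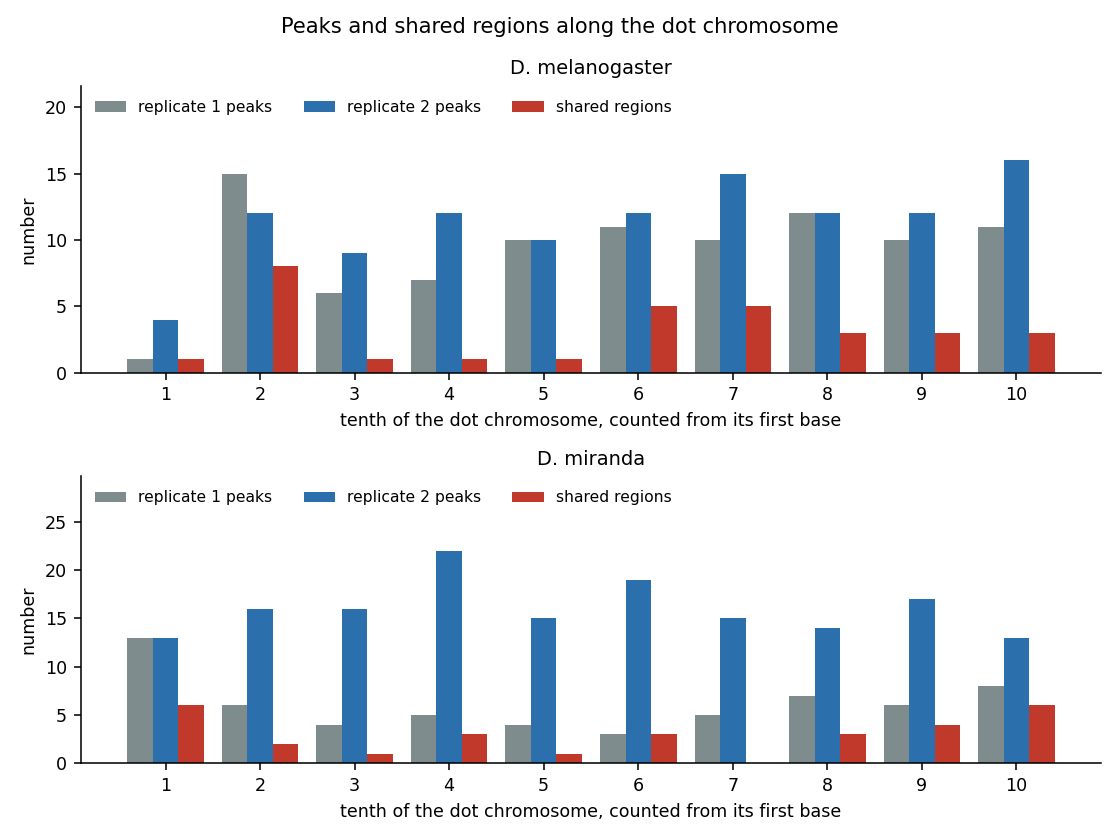
Number of peaks in replicate 1 (grey) and replicate 2 (blue) and of shared regions (red) in each of 10 equal segments of the dot chromosome, counted from its first base (horizontal axis). Chromosome 4 holds 1 and 4 peaks in its first segment and 8 shared regions in its second, and F holds 6 shared regions in each of its end segments.

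The longest stretches without a peak also differed between replicates. On chromosome 4 the longest interval between peaks was 67.6 kb in replicate 1, chr4:70672-138257, within the first segments, and 41.5 kb in replicate 2, chr4:333598-375134. On F it was 97.4 kb in replicate 1, F:896089-993463, and 67.7 kb in replicate 2, F:825337-893013. The 2 F intervals are separated by the shared region at F:893014-896510 (3.55 and 1.39). Other chromosomes had longer empty intervals, up to 415 and 218 kb in *D. melanogaster* and 359 and 126 kb in *D. miranda*.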

How the data were processed

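For each ChIP library the authors deposited a list of broad peaks. According to the study's methods they kept uniquely aligned reads (dm3 for *D. melanogaster*, a published assembly for *D. miranda*), removed positions with anomalous tag counts, normalized by library size and called peaks on each replicate with SPP at default parameters. The submitters' processing notes name Bowtie. Versions were not given. The deposited value is read as log2 ChIP/input from its spacing: 157 of 251, 851 of 1551, 164 of 300 and 412 of 929 distinct values have a partner exactly 1 away (tolerance 1e-08). Ranks do not depend on this reading.

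Dot chromosome peaks were compared with the other assembled chromosomes of their list in Python 3.11.15 with scipy 1.17.1. Densities were compared by the exact conditional binomial test, and shares by Clopper-Pearson intervals with no test. The p-values measure counting error in these libraries, not spread between animals. The highest 25% and 10% were cut at the list's percentiles, ties included. The regions named by position are, per species, the 6 shared regions with the highest mean percentile, the 3 with the closest centers and the widest, and per list the 3 highest peaks, the widest peak and the longest interval. The members and lists were chosen with earlier results of these data known. The procedures were tested on simulated data. Alternatives covered the comparison chromosomes, the length, the overlap rule, peaks at or above the median value or width, and single replicates.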

Additional observations from a re-analysis of the deposited data

How the results depend on the processing

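Of 68 recomputed values, 40 kept their direction and side of the threshold or stayed within the interval of the value reported. Measured from the first to the last peak, the density ratio was 1.02 in *D. melanogaster* replicate 1, now above 1, and 1.34 in replicate 2 (adjusted p = 0.0413 by the exact test). Against autosomes alone it was 1.01 in *D. miranda* replicate 2, now above 1. With peaks at or above the median value it was 2.34 in *D. melanogaster* replicate 2, by construction of a selection on the shifted value. It was 0.93 in *D. miranda* replicate 1. With peaks at or above the median width it was 1.45 and 1.61 in the same lists (adjusted p = 0.0253 and 0.0287 by the exact test). Dot chromosome peaks had the larger median width in both of these lists, so this too is a selection on a shifted measure. The shared region ratio at or above the median value was 2.28 in *D. melanogaster*, by construction of the selection on value. In *D. miranda* it was 1.04, with an interval (0.28 to 2.69) that includes the 1.74 of all peaks. The *D. miranda* shared region ratio was 1.86 against autosomes, 2.36 at or above the median width, again a selection on width, and 2.23 under reciprocal overlap. A single list has no shared regions, so leaving out 1 replicate leaves the peak density ratio of the other list. That ratio was 0.97 (without replicate 2) and 1.27 in *D. melanogaster* and 0.98 (without replicate 1) and 1.32 in *D. miranda*. These are the density ratios given above and no check of the shared region ratio.

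The shared share of dot chromosome peaks fell with stricter rules, as did that of their lists. Under reciprocal overlap it was 18.3% and 14.9% in *D. melanogaster* and 32.8% in *D. miranda* replicate 1 (lists 12.7%, 13.6% and 19.6%), and with centers within 200 bp 7.53%, 6.14%, 9.84% and 3.75% (lists 5.11%, 5.45%, 7.49% and 2.14%). At or above the median value it was 16.2% in *D. melanogaster* replicate 2 and 16.7% and 4.88% in *D. miranda*, close to the 15.9%, 15.3% and 4.79% of those lists. In *D. melanogaster* replicate 1 that cut gave 34.0%, against 14.1%, but it keeps 105 of 114 chromosome 4 peaks of replicate 2. At or above the median width the share was 18.5% in *D. melanogaster* replicate 2, below the 20.6% of the list. In replicate 1 it was 28.9%, against 19.3%. On F the width cut gave 51.4% and 22.2%, not below the shares without it, against 34.3% and 9.80%. F peaks of replicate 1 were wider than the rest, so there the cut selects on a shifted measure. The share among the widest 10%, divided by that of the list, was 0.53 in *D. melanogaster* replicate 1 and 1.91 and 1.44 in *D. miranda*, where the widest 25% gave 1.07, 1.24 and 1.07. For value in *D. melanogaster* replicate 2 it was 3.50, where the highest 25% gave 2.66. The causes were not tested. No paired analysis was possible because each value comes from the peaks of 1 list or of both lists joined, and replicate numbers link no samples across species. Dot chromosome counts of 61 to 160 peaks limit every interval.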
